A study of Homo sapiens with 16 samples.

Results

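Uninduced U937 cells sampled at 72 h were compared with uninduced cells of the same line sampled at 24 h, with uninduced cells at 48 h as the point between them. U937 is a human leukaemia line of monocytic character, and the cells of every group carried an inducible AML1-ETO transgene driven by a promoter that responds to tetracycline. The fusion protein joins part of the transcription factor RUNX1 to most of the corepressor RUNX1T1. In the uninduced cells the transgene was present but had not been switched on. The arrays compared were the 2 at 72 h and the 2 at 24 h, chosen by their labels, out of 16 in the series. The 2 uninduced arrays at 48 h, the 2 at 0 h, and the induced arrays at 72 h (2) and 24 h (2) were set beside them. All cells were grown in the same serum-containing medium with antibiotics. The labels give the hours of exposure. They do not say whether the uninduced cultures were fed, split or seeded apart from one another, or which change in tetracycline switches the transgene on. No label says that the replicates were separate cultures, and the p-values may therefore reflect technical spread alone. The question is which transcripts change over 24 to 72 h in these cells while the transgene is not induced.

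A culture left to grow uses up amino acids, glucose and serum factors and gathers waste products and cells. Cells answer such a change through a few known routes. The integrated stress response slows translation and raises the transcription factors ATF4 and DDIT3 (CHOP). Forkhead factors of the FOXO family, which are held out of the nucleus while growth-factor signalling is strong, raise genes such as TSC22D3 (GILZ). Growth programmes that depend on MYC, among them ribosome and polyamine synthesis, and the chaperones and proteasomes that serve rapid protein synthesis can move the other way.

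Each array gave 1 intensity for each of 12626 probe sets, with a mean of 1370.9 on every array. The median intensity of the 6 uninduced arrays at 24 to 72 h lay between 236.1 and 337.5, and 23.2% to 30.7% of their values were below 0. Values under a floor of 135.61 were raised to it before log2 was taken, and 7824 probe sets with enough signal were tested. Replicates at 72 h correlated at r = 0.965 and replicates at 24 h at r = 0.954 on the log2 scale across probe sets. RUNX1T1, whose sequence the fusion carries, was not measured above background in uninduced cells: its tested probe set read -398.6 to 91.4 on the 8 uninduced arrays, all under the floor, and of 32 values over its 4 probe sets 2 reached it. Of the myeloid markers, CD4, ELANE, FCER1G, ITGB2, LAPTM5, LYZ, PTPRC and SPI1 exceeded the floor on all 6 uninduced arrays from 24 to 72 h. CSF1R and ITGAM were under it on all 6. Lymphoid CD3E and CD79A exceeded the floor on all 6 as well. So did ALAS2 and ITGA2B of the erythroid and megakaryocyte list, and COL1A1, KRT8 and VIM of the epithelial and fibroblast list. Being over the floor is thus not particular to the myeloid list. The summed intensity of the 13 myeloid markers with a probe set was 43350 and 44753 at 72 h and 41777 and 45385 at 24 h. The 8 lymphoid markers with a probe set summed to 1816 and 2282 at 72 h and 2587 and 2812 at 24 h. No member of the marker lists passed the test, and the part of other cell types in the results was not tested. PTPRC (CD45), the pan-leukocyte phosphatase, had 3 probe sets with log2 differences of 0.27, 0.52 and -0.22, none of them past the threshold.

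Few genes differed between 72 h and 24 h. With limma, 16 of 7824 probe sets (0.204%) passed at an adjusted p under 0.05, 12 higher at 72 h (0.153%) and 4 lower (0.0511%). Of the 16, 2 probe sets (DUSP7 and the second of DDIT3) entered the test only through the 72 h arrays, as described with those genes. The 16 belong to 13 named genes, 9 of which rose and 4 of which fell, and to 1 probe set with no gene symbol here. The genes that rose were TSC22D3, DDIT3, DUSP7, GRN, ASMTL, TUBA1A, HLA-E, ECH1 and SAT1. The genes that fell were PRELP, CTSA, PSMD1 and PSMD11. The absolute log2 differences of the 16 probe sets ran from 0.82 to 3.46. The 72 h arrays lay wholly above or wholly below the 24 h arrays for all 16, as they did for 37.9% of all tested probe sets. Without the adjustment for many tests, 826 probe sets (10.6%) had p under 0.05, 425 higher (5.43%) and 401 lower (5.13%) at 72 h. Log2 differences had a standard deviation of 0.55 and a median of -0.03 across the tested probe sets, and their median standard error was 0.385.

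The calls rest on a spread estimated from all 16 arrays. With only the 8 uninduced arrays in the fit none passed (829 at an unadjusted p under 0.05, smallest adjusted p = 0.0556 with limma), and with only the 4 arrays compared none passed either (739 and 0.399). Each of the 4 arrays compared was also left out in turn. In each of these fits most of the 16 calls were lost, and some of the calls made were not among the 16. DDIT3 kept its call in each of these 4 fits, TSC22D3, SAT1 and PRELP in 1 of them, and the other called genes in none. Over all alternative fits DDIT3 lost its call in 2 of 13, TSC22D3 in 5 of 14 and CTSA in 12 of 14. Arrays at the floor show no spread between replicates, and the sizes of differences that involve the floor move with it. With the floor at the 50th and at the 30th percentile of all values, the log2 differences were 2.35 and 4.49 for TSC22D3, 2.18 and 5.27 for DDIT3, 0.78 and 3.87 for DUSP7 and -2.86 and -4.41 for PRELP.

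**Figure D1:**
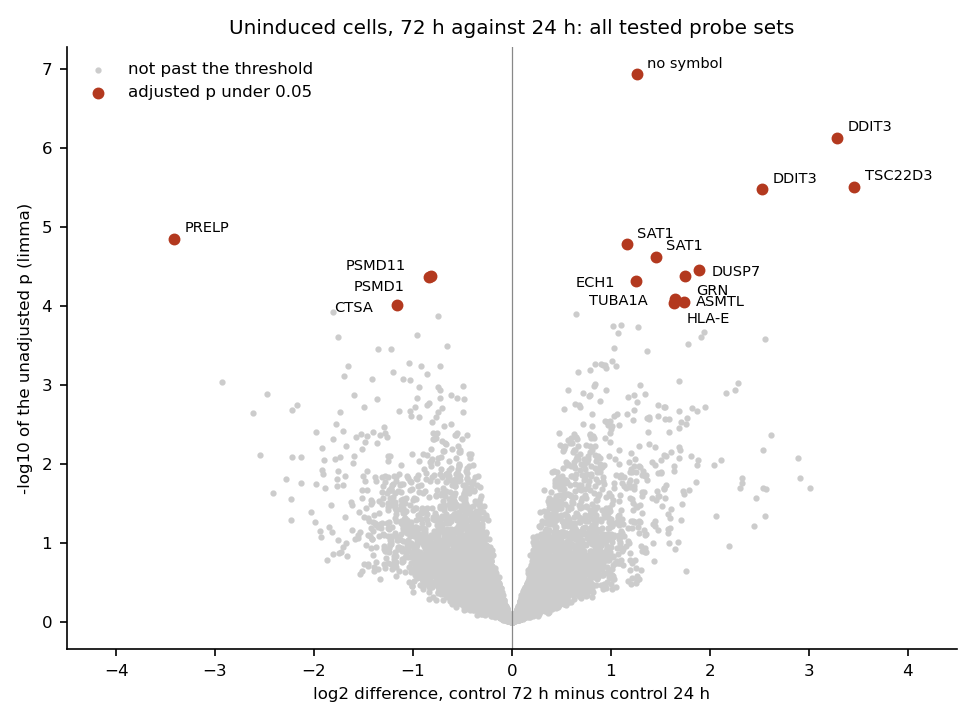
Each point is 1 of 7824 probe sets, placed by its log2 difference (uninduced 72 h minus uninduced 24 h, x axis) and by -log10 of its unadjusted limma p (y axis). The 16 red points passed at an adjusted p under 0.05, 12 on the right (higher at 72 h) and 4 on the left (lower at 72 h), with gene symbols beside all but the 1 probe set that has none.

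The promoters of 4 called genes are shown: DDIT3 and TSC22D3, both under the floor at 24 h, SAT1, which rose in 2 probe sets, and CTSA, which moved in opposite directions in induced and uninduced cells. They come from RefSeq on GRCh38.p14, cover 250 bases before to 50 bases after the transcription start, and read 5' to 3' on the gene's strand. Capitals mark matches, on either strand, to the CCAAT box (CCAAT), the forkhead site TGTTTAC or the E-box CACGTG. These letters were found in 34.6%, 3.42% and 7.26% of 35116 promoters of the same length. TGATGNAA, the core of the composite site for C/EBP and ATF factors, was also searched. It occurs in 3.62% of those promoters and in none of the 4 printed here. Bases outside the printed regions were not searched, so these genes may hold the site elsewhere. A match describes the letters and is not a binding site shown by these data.
DDIT3 (chr12:57520465-57520764, minus strand): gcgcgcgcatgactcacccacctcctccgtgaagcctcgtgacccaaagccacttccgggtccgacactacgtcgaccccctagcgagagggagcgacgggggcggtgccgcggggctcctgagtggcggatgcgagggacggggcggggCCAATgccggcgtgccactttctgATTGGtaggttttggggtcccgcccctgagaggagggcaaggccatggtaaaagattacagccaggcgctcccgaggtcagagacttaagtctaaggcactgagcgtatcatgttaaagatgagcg
TSC22D3, 1 of its 4 starts (chrX:107717013-107717312, minus strand): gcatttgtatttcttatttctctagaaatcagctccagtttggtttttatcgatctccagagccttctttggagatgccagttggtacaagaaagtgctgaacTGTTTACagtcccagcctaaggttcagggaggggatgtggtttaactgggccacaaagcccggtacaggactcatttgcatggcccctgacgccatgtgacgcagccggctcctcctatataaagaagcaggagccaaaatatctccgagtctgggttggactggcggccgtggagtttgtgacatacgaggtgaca
SAT1 (chrX:23782923-23783222, plus strand): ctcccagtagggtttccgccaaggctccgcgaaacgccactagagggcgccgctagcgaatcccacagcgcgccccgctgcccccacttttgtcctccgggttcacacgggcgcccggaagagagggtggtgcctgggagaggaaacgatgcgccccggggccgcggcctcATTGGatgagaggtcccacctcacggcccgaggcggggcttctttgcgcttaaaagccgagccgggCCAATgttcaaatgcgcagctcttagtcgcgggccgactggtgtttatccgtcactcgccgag
CTSA (chr20:45891085-45891384, plus strand): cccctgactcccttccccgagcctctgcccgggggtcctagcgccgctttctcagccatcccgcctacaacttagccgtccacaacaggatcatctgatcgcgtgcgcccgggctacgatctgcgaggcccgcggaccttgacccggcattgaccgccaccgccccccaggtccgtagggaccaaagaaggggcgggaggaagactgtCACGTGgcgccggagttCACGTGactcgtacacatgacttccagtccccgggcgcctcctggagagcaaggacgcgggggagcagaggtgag
DDIT3 and SAT1 each held 2 CCAAT boxes, and CTSA held 2 E-boxes. The DDIT3 start shown is not its only one. The region of another (chr12:57520468-57520767) overlaps nearly all of the region shown, and its 2 CCAAT boxes are the same ones. Of the 4 TSC22D3 starts only the one shown held the forkhead letters. A TSC22D3 start not shown held 1 CCAAT box.

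TSC22D3, a glucocorticoid- and FOXO-responsive leucine zipper protein that restrains inflammatory and growth signalling, was under the floor at 24 h and rose. Its intensities were 1268 and 1764 at 72 h, against 91.7 and 48.5 at 24 h, where both arrays were under the floor. The rise was at least 11-fold (log2 difference 3.46 ± 0.45 SE, adjusted p = 0.00651). The 48 h arrays read 745 and 303, and the 0 h arrays 1526 and 1725. Both 0 h arrays were thus far above both 24 h arrays and within the range at 72 h. A second TSC22D3 probe set had a log2 difference of 1.03 and did not pass (adjusted p = 0.764).

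DDIT3, the C/EBP-family factor induced by endoplasmic reticulum and amino acid stress, was measured above the floor at 72 h and under it at 24 h. It read 1627 and 1078 at 72 h, against -637.6 and -423.1 at 24 h. The 48 h arrays, at -108.2 and -438.9, were under the floor too, so that all 4 arrays at 24 and 48 h had no measurable level, while the 0 h arrays read 967 and 565. The rise against 24 h was at least 9.77-fold (log2 3.29 ± 0.38 SE, adjusted p = 0.00289). Its first probe set was above the filter level of 292.74 on 4 of the 16 arrays, the 2 at 72 h and the 2 at 0 h. Its second probe set read 643 and 952 at 72 h and was under the floor on all 0, 24 and 48 h arrays (log2 2.53, adjusted p = 0.00651). Only the 2 arrays at 72 h took it past the filter, so it had to differ and adds no support to the first.

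DUSP7, a phosphatase of the ERK kinases, read 484 and 523 at 72 h, against -40.0 and -170.6 at 24 h, a rise of at least 3.71-fold (log2 1.89 ± 0.31 SE, adjusted p = 0.0304). Its 0 h and 48 h arrays were under the floor as well. Of all 16 arrays only those 2 exceeded the filter level of 292.74, so this probe set entered the test through the group where it is high and had to differ, and its p is no support. A second DUSP7 probe set had a log2 difference of -0.49 (adjusted p = 0.749), so the probe sets of this gene disagree.

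SAT1, the enzyme that acetylates spermidine and spermine so that they can be broken down or exported, read 4744 and 4784 at 72 h, against 2447 and 1851 at 24 h. It rose 2.24-fold (log2 1.16 ± 0.18 SE, adjusted p = 0.0213), and a second probe set rose with it (log2 1.46, adjusted p = 0.0265). The 48 h arrays, at 3812 and 2660, lay between the others, and the 0 h arrays, at 5496 and 5422, were the highest of the uninduced cells. A further SAT1 probe set read below 0 on every uninduced array and was not tested.

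GRN encodes progranulin, a secreted growth factor precursor that is also handled in lysosomes. It read 2288 and 2474 at 72 h, against 719 and 693 at 24 h, a rise of 3.37-fold (log2 1.75 ± 0.29 SE, adjusted p = 0.0304). The 48 h arrays were apart from each other, at 827 and 1740.2. The 0 h arrays read 1726 and 2461, above both 24 h arrays. ASMTL, a protein related to the methyltransferase of melatonin synthesis, read 1173 and 1621 at 72 h, against 380.2 and 449 at 24 h (3.34-fold, adjusted p = 0.0474), and 913 and 1338 at 0 h. Its second probe set had a log2 difference of 1.03 and did not pass (adjusted p = 0.317).

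HLA-E, a non-classical class I molecule recognised by natural killer cells, read 2366 and 2504 at 72 h, against 711 and 852 at 24 h, and rose 3.13-fold (log2 1.64 ± 0.30 SE, adjusted p = 0.0474). The 0 h arrays, at 2391 and 2253, were close to those at 72 h. TUBA1A, an alpha-tubulin, read 5459.6 and 8345 at 72 h, against 1659 and 2797 at 24 h, also a 3.13-fold rise (log2 1.65 ± 0.29 SE, adjusted p = 0.0474). Its 0 h arrays read 5772 and 6436. Both belong to families of closely similar genes, and the probe sets may not tell the members apart. ECH1, an isomerase of fatty acid oxidation, read 4729.8 and 5783 at 72 h, against 2227 and 2155 at 24 h (2.39-fold, adjusted p = 0.0311), and 3417 and 4029 at 0 h. Across these genes the 48 h means lay between the 24 h and 72 h means. In the MHC class I and II list, which holds HLA-E, 5 of 14 tested genes lay above a log2 difference of 0 and 9 below. The median of that list was -0.35. Of all 5606 genes, 2553 lay above 0 and 2987 below.

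Among the falls, PRELP, a leucine-rich proteoglycan of the extracellular matrix, read -246.1 and 456 at 72 h, against 3229 and 2185 at 24 h. The fall was at least 10.7-fold (log2 -3.42 ± 0.51 SE, adjusted p = 0.0213), with 1 of the 2 arrays at 72 h under the floor. Its log2 difference was -4.29 without replicate 2 at 72 h and -2.54 without replicate 1 at 72 h. It was high on all arrays at 0, 24 and 48 h, and its difference against 0 h was also past the threshold (log2 -3.66, adjusted p = 0.0179), as it was for 0.0383% of all probe sets.

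CTSA, the lysosomal carboxypeptidase that protects beta-galactosidase and neuraminidase, read 971 and 1212 at 72 h, against 2421 and 2434 at 24 h, and fell 2.24-fold (log2 -1.16 ± 0.21 SE, adjusted p = 0.0481). Its 0 h arrays, at 707 and 790.2, were lower than those at 72 h. PSMD1 and PSMD11 are subunits of the 19S cap that feeds substrates into the proteasome. PSMD1 read 4208 and 4512 at 72 h, against 7866 and 7749 at 24 h (1.79-fold lower, log2 -0.84 ± 0.14 SE, adjusted p = 0.0304). PSMD11 read 3321 and 3455 at 72 h, against 5762 and 6199 at 24 h (1.76-fold lower, log2 -0.82 ± 0.14 SE, adjusted p = 0.0304). For both genes the 48 h arrays lay between the groups. The 0 h arrays read 4894 and 4111 for PSMD1 and 2862 and 3364 for PSMD11, below the 24 h arrays and near those at 72 h.

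The probe set with the smallest p of the comparison has no gene symbol in the annotation used. It read 8879 and 9695 at 72 h, against 3889 and 3841 at 24 h (log2 1.26 ± 0.12 SE, adjusted p = 0.000912). Its 48 h arrays read 6250.2 and 6408, and its 0 h arrays 9445 and 9789.9. Between 72 h and 0 h, 2 of the 16 probe sets passed, that of PRELP and the second of DDIT3, and that comparison shares the 72 h arrays. Only those 72 h arrays took the second DDIT3 probe set past the filter, so its pass is no support. The other 14 did not pass between 72 h and 0 h, which does not show that they were the same at both times.

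**Figure D2:**
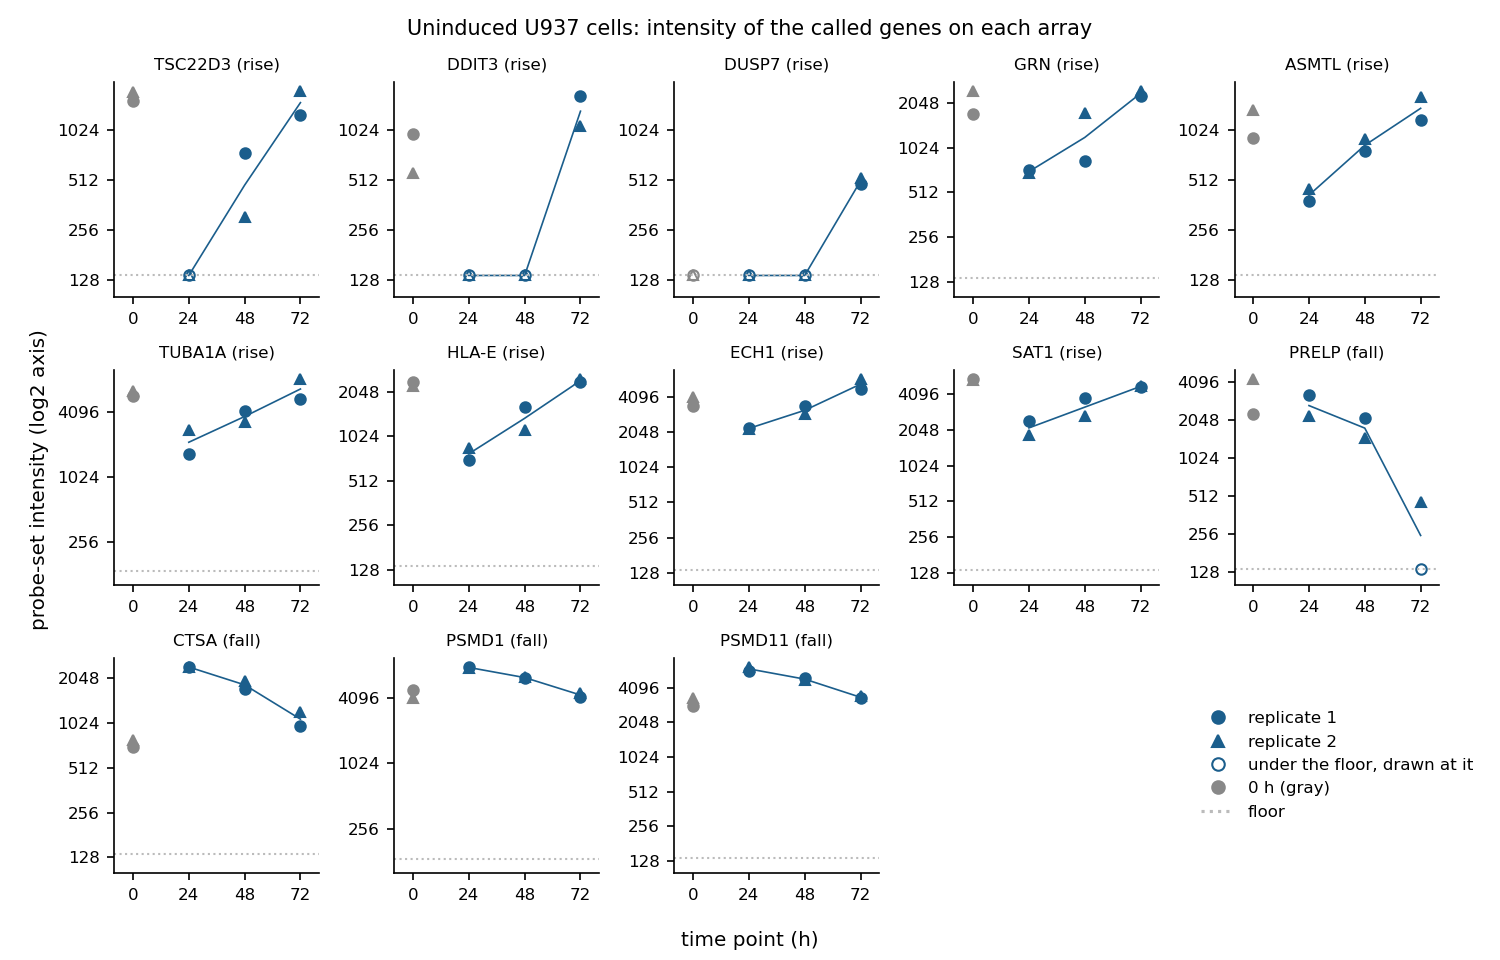
Intensity (log2 axis) of the 13 called genes on each uninduced array against time in hours, with circles for replicate 1 and triangles for replicate 2. The line joins the means of the floored log2 values at 24, 48 and 72 h, gray symbols are the 0 h arrays, open symbols are arrays under the floor of 135.61 (dotted). TSC22D3, DDIT3 and DUSP7 are under the floor at 24 h and above it at 72 h, and PRELP is lowest at 72 h.

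Below the threshold, the next falls with non-overlapping groups were in CCDC86, CYP2A13, FKBP4, DPH2, SLC19A1 and DNAJA1. The CYP2A13 probe set had a log2 difference of -1.75 (adjusted p = 0.0724). Further CYP2A13 probe sets had log2 differences of -0.19 and -1.11 and were far from passing (adjusted p = 0.935 and 0.663). CCDC86, a nucleolar protein, read 303 and 334 at 72 h, against 1171 and 1054 at 24 h (log2 -1.81, adjusted p = 0.0542). SLC19A1, the reduced folate carrier, read 1249.8 and 1255 at 72 h, against 3300.3 and 3088 at 24 h (log2 -1.35, adjusted p = 0.0832). DPH2, an enzyme of diphthamide synthesis on elongation factor EEF2, had a log2 difference of -1.22 (adjusted p = 0.0832). FKBP4 and DNAJA1 are cochaperones of HSP90 and HSP70. FKBP4 had a log2 difference of -0.66 (adjusted p = 0.083) and DNAJA1 one of -1.04 (adjusted p = 0.104). On the other side, ALOX5AP, which presents arachidonic acid to 5-lipoxygenase, read 2986 and 3959 at 72 h, against 1620.1 and 1572 at 24 h (log2 1.11, adjusted p = 0.0649).

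Fewer probe sets passed within each of the shorter intervals. Between 48 h and 24 h, 0 of 7824 probe sets (0.0%) passed with limma, 271 (3.46%) had an unadjusted p under 0.05, and the smallest adjusted p was 0.236. Between 72 h and 48 h, 3 (0.0383%) passed, both probe sets of DDIT3, which rose (0.0256%), and 1 probe set of CYP2A13, which fell (0.0128%). The second DDIT3 probe set entered the test only through the 72 h arrays, so it had to differ here too and is no support. CYP2A13, a cytochrome P450 with near-identical relatives, read 260.0 and -135.3 at 72 h, against 1427 and 981 at 48 h. Leaving out replicate 1 at 48 h took this count to 0 (325 at an unadjusted p under 0.05, smallest adjusted p = 0.132), and leaving out replicate 2 at 48 h took it to 5. An F test for any difference among 24, 48 and 72 h passed 7 probe sets (0.0895%), with 3 left without replicate 1 or without replicate 2 at 72 h, and 12 without replicate 2 at 48 h. The F test's 7 include the second DDIT3 probe set and that of DUSP7, which only the 72 h arrays took past the filter. The 48 h mean lay between the 24 h and 72 h means in 13 of the 16 probe sets called between 72 h and 24 h. The exceptions were both DDIT3 probe sets and DUSP7, whose arrays at 24 and 48 h were all under the floor.

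Gene groups showed small shifts, described here by counts at an unadjusted p under 0.05. Over all 5606 named genes, with 1 probe set each, 12.5% had such a p (361 or 6.44% higher, 342 or 6.1% lower at 72 h) and the median log2 difference was -0.04. In the list of nutrient and growth-arrest stress genes, 8 of 20 tested genes were higher at that level and 1 was lower, and the median was 0.50. TSC22D3 was the member past the adjusted threshold. Others, named after their values were seen, were TXNIP, an inhibitor of glucose uptake and thioredoxin (6580.3 and 6322 at 72 h, 3185 and 3486 at 24 h, log2 0.95, adjusted p = 0.107), FOXO3 itself (log2 0.65, adjusted p = 0.268) and CCNG2, an atypical cyclin of resting cells (log2 1.54, adjusted p = 0.265).

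In the amino acid and unfolded protein response list, 5 of 32 genes were higher at that level and 3 lower, with a median of 0.11, and DDIT3 was the member that passed the adjusted test. ATF4, the factor upstream of DDIT3 in the integrated stress response, read 13087 and 13692 at 72 h and 12913 and 11104 at 24 h, a log2 difference of 0.16 (adjusted p = 0.799). ASNS, asparagine synthetase, had a log2 difference of 0.77 (adjusted p = 0.268), and CALR, the endoplasmic reticulum chaperone calreticulin, one of -1.0 (adjusted p = 0.264). ATF4, ASNS and CALR were named after their values were seen. The list's members therefore lay on both sides of 0.

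Chaperones (17 of 20) and ribosome biogenesis genes (18 of 20) lay mostly below 0. All 5606 genes were more evenly split, with 2987 below 0 and 2553 above it. Of 20 heat shock and chaperone genes, 8 were lower and 0 higher at an unadjusted p under 0.05, the median was -0.38 and none passed the adjusted test. The smallest p-values were those of DNAJA1 (above), HSP90AA1, the inducible cytosolic HSP90 (log2 -0.55, adjusted p = 0.146), HSPH1, an HSP110 protein (log2 -1.78, adjusted p = 0.186), and HSPE1, the mitochondrial cochaperonin (log2 -0.68, adjusted p = 0.189). Of 20 genes in the list of MYC and ribosome biogenesis, 7 were lower and 0 higher, the median was -0.46 and none passed the adjusted test. They were led by RRP1B (log2 -0.79, adjusted p = 0.217), BYSL (log2 -0.52, adjusted p = 0.256), NOP2 (log2 -0.94, adjusted p = 0.308) and PES1 (log2 -0.59, adjusted p = 0.315), all factors of ribosome assembly. MYC itself, named after its values were seen, had a log2 difference of -0.24 (adjusted p = 0.878). The 45 tested genes of cytosolic ribosomal proteins had a median of 0.03.

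Proteasome and polyamine genes were put together as lists only after the values had been seen, so their counts are no test. Of 35 proteasome genes, 8 were lower and 2 higher at an unadjusted p under 0.05, with a median of -0.22 and 27 of 35 below 0. Of all 5606 genes, 2987 lay below 0. The pair with higher values, named after these were seen, was PSME1 (log2 1.07, adjusted p = 0.166), part of the interferon-inducible activator, and PSMB9 (log2 0.75, adjusted p = 0.369), a subunit of the immunoproteasome. Of 12 polyamine genes, 3 were lower and 1 higher. Named in the same way, the synthetic enzymes SRM (log2 -0.49, adjusted p = 0.134) and ODC1 (log2 -0.38, adjusted p = 0.335) lay below 0 and the degrading enzyme SAT1 rose.

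The cell cycle lists stayed near 0. DNA replication and S phase genes (43 tested) had 4 higher and 1 lower at an unadjusted p under 0.05 with a median of 0.01. Mitosis and G2/M genes (36 tested) had 2 higher and 4 lower with a median of 0.03. None of them passed the adjusted test. CDT1, which licenses replication origins, had the smallest p of the replication list (6179.8 and 6883 at 72 h, 2945 and 3283 at 24 h, log2 1.07, adjusted p = 0.072), and CCNE2, a G1/S cyclin, had a log2 difference of -1.48 (adjusted p = 0.231).

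**Figure D3:**
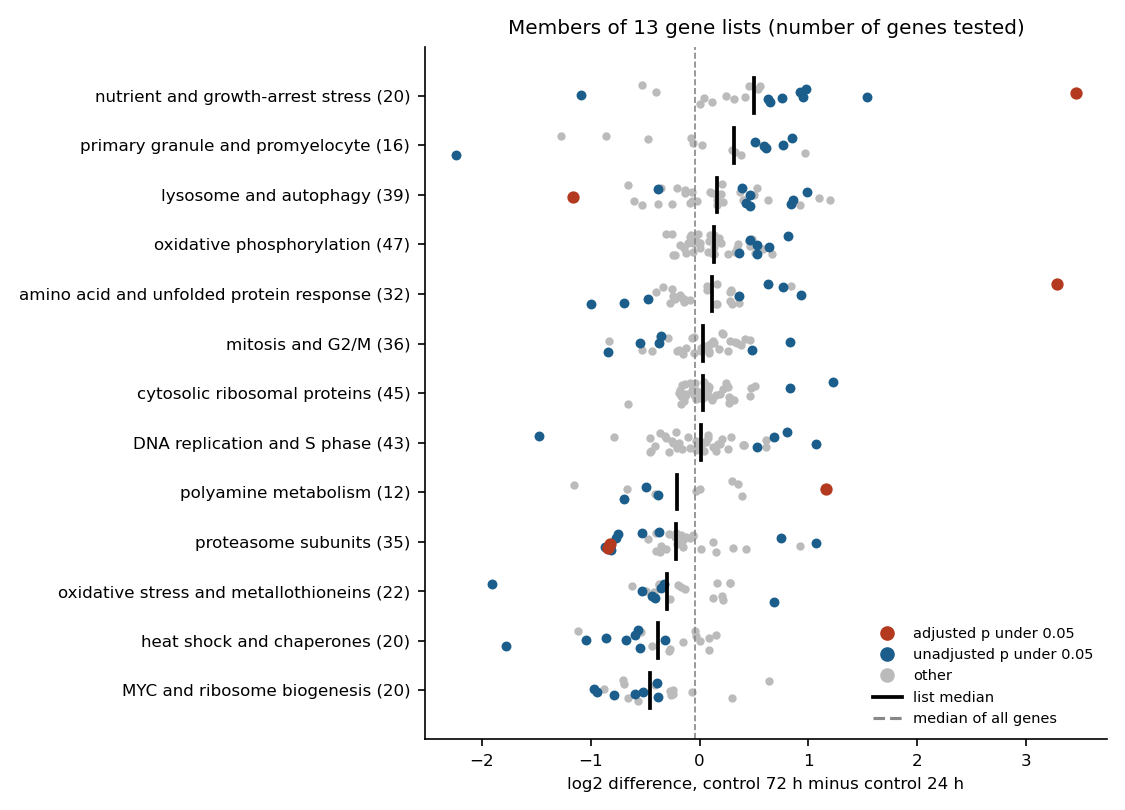
Log2 difference (uninduced 72 h minus uninduced 24 h, x axis) of each tested gene in 13 lists, with the list's median as a black bar and the median of all 5606 genes as a dashed line. Red points passed at an adjusted p under 0.05 and blue points had an unadjusted p under 0.05. The medians of the 13 lists drawn run from -0.46 (MYC and ribosome biogenesis) to 0.50 (nutrient and growth-arrest stress).

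In the induced cells 2189 probe sets (28.0%) passed between 72 h and 24 h. The standard deviation of the log2 difference was 1.08 in induced cells and 0.55 in uninduced cells. A log2 difference of at least 1 in size was seen for 2200 probe sets (28.1%) in induced cells and for 560 (7.16%) in uninduced cells. Across the 7824 probe sets the differences of the induced and of the uninduced cells correlated at r = 0.101, with no arrays in common, as a description over probe sets that are not independent. The test of the difference in change passed 1135 probe sets (14.5%), and 720 when replicate 2 of the induced cells at 24 h was left out.

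Of the 16 probe sets called in uninduced cells, 11 passed in the same direction in induced cells, where 13.2% of all probe sets passed as higher and 14.8% as lower. CTSA passed in the other direction and 4 did not pass. The difference in change, which uses the same uninduced arrays, passed for 9 of the 16. These 9 include the second DDIT3 probe set and that of DUSP7. Only the uninduced 72 h arrays took both past the filter, so their passes are no support. TSC22D3 had log2 differences of 2.91 in induced cells and 3.46 in uninduced cells, and the difference in change of -0.55 did not pass (adjusted p = 0.624). ASMTL rose in both as well (2.86 in induced cells, 1.74 in uninduced cells), with a difference of 1.12 (adjusted p = 0.116). TUBA1A, HLA-E, ECH1, PSMD1 and PSMD11 also passed in both, and their differences in change of -0.15 to 0.03 did not pass (adjusted p = 0.661 to 0.984).

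GRN and SAT1 rose in both but more in induced cells. GRN had log2 differences of 3.31 in induced cells and 1.75 in uninduced cells (difference 1.56, adjusted p = 0.0226). SAT1 had 2.33 in induced cells and 1.16 in uninduced cells (difference 1.17, adjusted p = 0.00669). DDIT3 was under the floor on all 4 induced arrays at 72 and 24 h, and the fitted difference in change, which the floor sets in part, was -3.29 (adjusted p = 0.00118). CTSA read 4137 and 4682 in induced cells at 72 h and 1971 and 1690.1 in induced cells at 24 h, opposite to the fall in uninduced cells (difference 2.43, adjusted p = 0.000194).

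**Figure D4:**
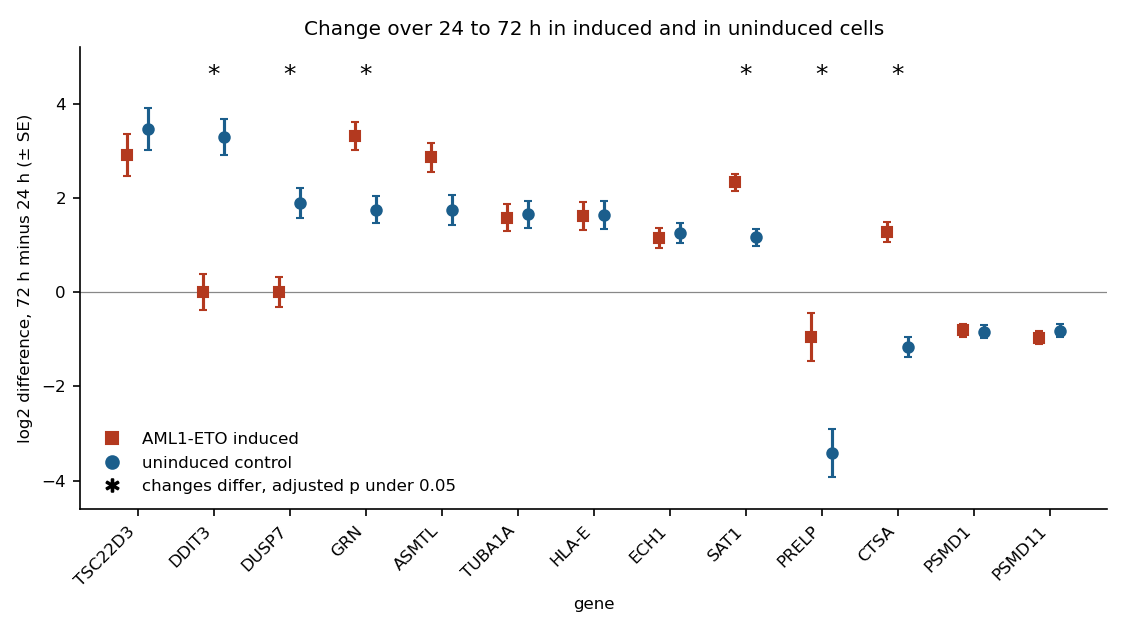
Log2 difference between 72 h and 24 h (± SE, y axis) of the 13 called genes in induced cells (red squares) and in uninduced cells (blue circles), with stars where the difference in change passed at an adjusted p under 0.05. DDIT3 and DUSP7 are at 0 in induced cells because all their arrays there were under the floor, and CTSA rose in induced cells and fell in uninduced cells. The star of DUSP7 is no support, because only the uninduced 72 h arrays took it past the filter.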

How the data were processed

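Intensity values, 1 per probe set and array, are the authors' deposited values of Affymetrix U95Av2 arrays on a linear scale. Per the labels' protocols, RNA was extracted with TRIzol and labelled with biotin, and each array carries a scale factor. The program that summarised the probes is not given in the labels used. The mean of every array was the same, and no further scaling was applied.

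Values under the 40th percentile of all values (135.61) were set to it and log2 was taken. Testing required 2 or more of the 16 arrays above the median of all values (292.74). The array's 67 control probe sets did not enter. Of 7824 tested probe sets 6878 had 1 symbol in the platform annotation, which can be old, 385 had several and 561 none. Probe sets with several symbols name no gene here.

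A model with 1 mean per group (8 groups) used all 16 arrays in limma 3.58.1 (R 4.3.3; lmFit, eBayes with a mean-variance trend, 8 residual degrees of freedom, median prior 5.19). P-values are two-sided and adjusted by Benjamini-Hochberg over all tested probe sets. Fold changes are those of floored log2 means. Where arrays of the lower group were at the floor and none of the higher group was, a fold is a lower bound, written "at least". With 2 arrays a group, their number limits the precision. On simulated data with 200 of 7824 probe sets changed between 72 h and 24 h, the fit made 6.7 false calls per draw. It found 27.3% of the 2-fold changes, 68.2% of the 4-fold and 79.5% of the 8-fold ones. The p needed to pass the adjusted threshold depends on how many probe sets change. The simulation set that number, and 16 passed in the data, so its shares and false calls need not hold here.

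Genes are represented by the probe set with the larger test statistic between 72 h and 24 h, also in the lists, a choice that raises the share of genes past a threshold in lists and among all genes. Named genes were the called genes with non-overlapping groups (up to 15 in each direction), filled to 10 in each direction by the smallest p-values, up to 5 rises and 5 falls of each further comparison, and the called members of a list or else its 4 smallest p-values. RUNX1T1 and PTPRC were always named, and other names are marked in the text. The comparison and the gene lists were chosen with earlier results of these data known, and the proteasome and polyamine lists after the values of this comparison were seen. Alternatives covered the floor, the filter, quantile normalization, median centring, the variance model, the arrays in the fit, a replicate block and leaving out each array.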

Additional observations from a re-analysis of the deposited data

Results flagged for a closer look

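For 17 named genes the change from 24 h to 72 h differed between induced and uninduced cells by the test of that difference (limma, adjusted p under 0.05). The value is the log2 difference of induced cells minus that of uninduced cells. Where arrays were under the floor the floor sets part of the value, which is then a fitted number and neither a measured size nor a rank. This holds for every gene given here except GRN, SAT1, CTSA and LYZL6. Genes that had moved in uninduced cells, or were near the threshold there, were DDIT3 (-3.29), DUSP7 (-1.89), GRN (1.56), SAT1 (1.17), PRELP (2.45), CTSA (2.43) and CYP2A13 (2.11). DUSP7 entered the test only through the uninduced 72 h arrays, so its difference in change is no support.

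Among genes with a difference towards induced cells was CDKN1A, the p21 inhibitor of cyclin-dependent kinases. It read 3083 and 4049.7 in induced cells at 72 h and was under the floor on all other arrays of both time points (difference 4.70, adjusted p = 6.76e-05). The others were the histone gene H2BC6 (5.18), the poliovirus receptor gene PVR (4.67), the muscle factor MYOG (4.64) and LYZL6 (4.59). LYZL6 read 1117 and 953 in uninduced cells at 72 h, against 3798 and 2951 in uninduced cells at 24 h. None of these 5 genes passed the test in uninduced cells alone.

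In the opposite direction, POLD1, the catalytic subunit of DNA polymerase delta, was under the floor in induced cells at 72 h, and read 4810.3 and 5024 in uninduced cells at 72 h (difference -5.17, adjusted p = 3.9e-07). IRF8, a factor of monocyte development, had a difference of -5.12, the tubulin gene TUBA4A one of -5.30, ECI1 of fatty acid oxidation one of -4.71 and ADA, adenosine deaminase, one of -4.6. ADA read 1953 and 2411 in uninduced cells at 72 h, against 463 and 868 in uninduced cells at 24 h (log2 1.78, adjusted p = 0.0822).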

How the results depend on the processing

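With 2 arrays a group, the calls depend on the spread borrowed from the other arrays. Between 72 h and 24 h the count of 16 became 10 with the floor at the 30th percentile, 8 without the mean-variance trend, 0 with only the 8 uninduced arrays, 0 with only the 4 arrays compared, and 3 to 5 with 1 array left out. Of the calls 75% were higher at 72 h. This share was 72.2% with quantile normalization and 90.9% with median centring. Between 48 h and 24 h the count of 0 became 1 with the floor at the 50th percentile, 5 without the filter, 2 without the trend, and 0 to 1 with 1 array left out. Between 72 h and 48 h the count of 3 became 6 with the floor at the 50th percentile, 10 without the filter, 7 without the trend, 0 with the stricter filter, 0 with only the 8 uninduced arrays, 0 with only the 4 arrays compared, and 0 to 5 with 1 array left out. The F test's count of 7 became 19 without the filter, 13 without the trend, 3 with the stricter filter, 0 with only the 8 uninduced arrays, and 3 to 12 with 1 array left out. The difference in change passed 947 to 1315 in the other alternatives run, and 720 to 1085 with 1 array left out. It cannot be fitted with uninduced arrays alone. Where fewer arrays entered the fit, fewer degrees of freedom were left. For the other alternatives the cause was not tested.

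The log2 differences of the genes named for the comparison of 72 h with 24 h kept their sign in all 276 alternative fits. In 106 of them a called gene lost its call, and in 4 a gene gained one. DDIT3, DUSP7, CCDC86 and CYP2A13 were not tested under the stricter filter. A fit with the replicate number as a block passed 13 probe sets between 72 h and 24 h, 0 between 48 h and 24 h, 3 between 72 h and 48 h, 9 in the F test and 1169 in the difference in change. TUBA1A, HLA-E and CTSA lost their call in it. The samples share only a number: the differences between replicates 1 and 2 correlated at 0.197 between uninduced 72 h and 24 h, and at 0.076 and 0.086 between uninduced 48 h and these groups, and from -0.152 to 0.25 over all pairs of groups.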

Other observations

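Primary granule and promyelocyte genes mark an early myeloid stage. Between uninduced cells at 72 h and at 24 h, 5 of 16 were higher and 1 was lower at an unadjusted p under 0.05. Over all genes 6.44% were higher and 6.1% lower at this level. The median log2 difference of the 16 was 0.32, and none of them passed the adjusted test. The smallest p-values were those of the elastase gene ELANE (log2 0.77, adjusted p = 0.265), MS4A3 (log2 0.85, adjusted p = 0.292), the protease inhibitor SERPINB1 (log2 0.51, adjusted p = 0.308) and the transcription factor MYB (log2 0.61, adjusted p = 0.308). Lysozyme (LYZ), named after its values were seen, had a log2 difference of -1.33 (adjusted p = 0.212). In the list of monocyte and macrophage maturation 1 of 19 was higher and 1 lower.

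Oxidative phosphorylation genes had 6 higher and 0 lower of 47 at an unadjusted p under 0.05. That is 12.8% of the list, against 12.5% of all genes. The list's median was 0.13, and its smallest p was that of UQCRC2 of complex III (log2 0.46, adjusted p = 0.31). Oxidative stress genes and metallothioneins had 1 higher and 6 lower of 22 with a median of -0.30. Their smallest p-values included MT1X, a metallothionein (log2 -0.53, adjusted p = 0.281), and GCLM, of glutathione synthesis (log2 -1.91, adjusted p = 0.308). Lysosome and autophagy genes had 7 higher and 2 lower of 39, and the called member, CTSA, was 1 of the lower ones. Neither the interferon list (1 higher and 1 lower of 28) nor the immediate early list (0 of 14) had more genes at this level than the 12.5% of all genes. Replication-dependent histones had 0 higher and 2 lower of 12 with a median of -0.40, and the lymphoid and erythroid marker lists, of 5 and 4 tested genes, had medians of -0.45 and -0.42 and no gene at this level.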
